A study of Mus musculus with 20 samples.

Results

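The glycine cleavage system was examined in mouse liver through the genes of its protein components, Gcsh, Gldc, Amt and Dld. A gene was included where the array's annotation named it, which gave 3 of the 4 genes, each with 1 probe, among 11734 named genes and 21643 features (genes, or probes without a gene name). Amt was not analysed here. The set was selected on the XX and XY values of Gcsh in these same arrays, so XX and XY values of the members are given as a description and were not tested.

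The glycine cleavage system is a mitochondrial enzyme complex that breaks glycine down to carbon dioxide and ammonia and passes the remaining carbon to tetrahydrofolate, and liver is one of its main sites. Gldc encodes the P protein, which removes the carboxyl group of glycine. Gcsh encodes the H protein, whose lipoyl arm carries the remainder to the T protein, encoded by Amt, where the carbon is handed to the folate carrier. Dld encodes the L protein, which reoxidizes the lipoyl arm and serves the pyruvate, 2-oxoglutarate and branched-chain ketoacid dehydrogenases in the same way.

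The livers came from 20 C57BL/6J mice of the FCG (core genotypes) cross, with 1 array per animal and 5 animals in each of 4 groups. XX Sry gonadal males and XY-Sry gonadal males carried the testis-determining gene Sry as an autosomal transgene, and XX gonadal females and XY- gonadal females did not. The Y chromosome of every XY animal lacked its own Sry, so that gonads were inherited apart from sex chromosomes. All 4 groups ate chow with 4% fat, were gonadectomized at 8 weeks of age and were killed at 12 weeks after a 12 h fast. A difference by gonadal type therefore compares animals without gonads that had carried testes or ovaries until surgery, and that still differ in the transgene. Each array compared one liver with a common liver pool, and all values below are log2 ratios of liver to pool, read from deposited values whose log base was not stated and taken as 10. Such ratios rank animals for one gene but not genes against each other, and they give no absolute level of a gene or of liver markers.

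The SD of the log2 ratios over all probes ran between 0.175 and 0.341 among the 20 arrays, and 4 of them, all from gonadal females, exceeded 0.3. Those 4 were XX female 6, XX female 2, XY- female 12 and XY- female 3, numbered by animal. The library labelled XY- female 30 went against its label. Its log2 ratio was -3.90 for Eif2s3y and -3.16 for Kdm5d, both Y-linked, against a lowest value of 0.57 and 0.14 among the other 9 XY livers. Results that rest on it are given with and without it. The mean of 7 measured hepatocyte markers (of 10 listed) lay, per array, between -0.06 and 0.18 in gonadal males and between -0.13 and 0.10 in gonadal females.

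Gcsh was lower in XX livers than in XY livers of both gonadal types. Its log2 ratios were -0.59, -0.56, -0.45, -0.44 and -0.36 in XX Sry males, against -0.02, 0.07, 0.15, 0.17 and 0.55 in XY-Sry males. In XX females they were -0.57, -0.43, -0.34, -0.29 and -0.18, against -0.26, 0.09, 0.36, 0.54 and 0.67 in XY- females. Among males the 2 groups did not overlap, and among females the sole overlap was the value of -0.26, which belonged to the library labelled XY- female 30. In whole tissue, fewer cells of a type and less RNA per cell cannot be told apart.

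The XX Sry males had the lowest mean for Gcsh, -0.48 ± 0.094, followed by XX females at -0.36 ± 0.15, XY-Sry males at 0.18 ± 0.22 and XY- females at 0.28 ± 0.37 (SD, n = 5 each). Without XY- female 30, the XY- female mean was 0.42 ± 0.25 (SD, n = 4). The lower pair of groups differed by less than the SD of the XX females, and the upper pair by less than the SD of either with XY- female 30 included, but by more than the SD of the XY-Sry males without it. Only the step between XX females and XY-Sry males was wider than the SDs of the groups beside it. With gonadal types pooled, the SD was 0.13 in the 10 XX livers, against 0.29 in the 10 labelled XY livers and 0.25 without XY- female 30.

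**Figure D1:**
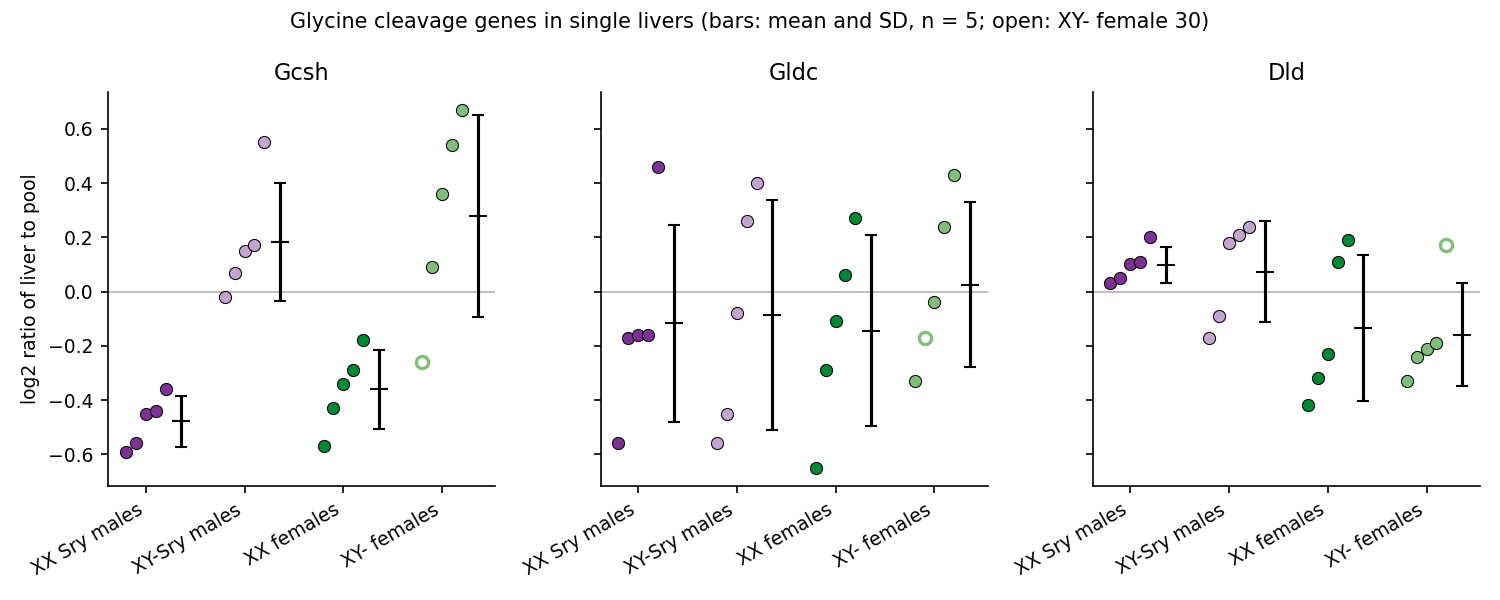
Log2 ratio of liver to pool for Gcsh, Gldc and Dld in each of the 20 livers (points, sorted within a group), with mean and SD of the 5 livers of a group (bars). XX livers lie at or below -0.18 for Gcsh, while the groups overlap for Gldc and Dld, and the open circle is the library labelled XY- female 30.

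As a description, the XX minus XY difference of Gcsh was -0.65 ± 0.10 on the log2 scale (SE of the limma fit), a 1.57-fold lower level in XX. It was -0.66 ± 0.14 in gonadal males and -0.64 ± 0.14 in gonadal females. Without XY- female 30 it was -0.72 ± 0.081 overall and -0.78 ± 0.12 in females. Leaving out the 4 wide arrays gave -0.61 ± 0.11. By size, Gcsh stood 29th of 21643 features, Gldc 4693rd and Dld 16079th. The fit called 6 of the 21643 features, or 0.0277%, at an adjusted p under 0.05 in limma, and Gcsh was among them. Without XY- female 30 it called 13, or 0.0601%. Nothing is read from these calls, since Gcsh was chosen by them. Just inside the threshold lay the Y-linked Kdm5d, with an XX minus XY difference of -2.31, and a probe without a gene name at 0.30, and just outside it lay the Y-linked Gm20747 at -1.21 and an unnamed probe at -0.56.

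Gldc showed no such order. Its log2 ratios were -0.56, -0.17, -0.16, -0.16 and 0.46 in XX Sry males, against -0.56, -0.45, -0.08, 0.26 and 0.40 in XY-Sry males. They were -0.65, -0.29, -0.11, 0.06 and 0.27 in XX females, against -0.33, -0.17, -0.04, 0.24 and 0.43 in XY- females. Every group spanned values on both sides of the pool. Gldc was also the member that varied most between animals of a group, with a within-group SD of 0.36, which is higher than that of 92.2% of all features, against 0.23 for Gcsh (75.2%) and 0.19 for Dld (64.6%). The XX minus XY difference of Gldc was -0.10 ± 0.15 (SE), with a 95% confidence interval between -0.42 and 0.22.

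Dld was likewise spread over overlapping ranges by sex chromosomes. Its log2 ratios were 0.03, 0.05, 0.10, 0.11 and 0.20 in XX Sry males, against -0.17, -0.09, 0.18, 0.21 and 0.24 in XY-Sry males. In XX females they were -0.42, -0.32, -0.23, 0.11 and 0.19, against -0.33, -0.24, -0.21, -0.19 and 0.17 in XY- females. The SD was 0.068 in XX Sry males, 0.19 in XY-Sry males, 0.27 in XX females and 0.19 in XY- females, or 0.059 in XY- females without the library labelled XY- female 30. The highest XY- female was that same library. The XX minus XY difference was 0.03 ± 0.083 (SE), with a 95% confidence interval between -0.15 and 0.20.

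The library labelled XY- female 30 was left out to find features whose 10 XX and 9 other XY livers did not overlap. There were 11 such features of 21643, and all 11 were lower in XX. Among them were Eif2s3y, Kdm5d, Gm20747 and Ssty1, genes of the Y chromosome, which XX livers lack. Gcsh was one of the 11, with a gap of 0.16 between a highest XX value of -0.18 and a lowest XY value of -0.02. Its place there is a description only, since Gcsh was chosen on its XX and XY values. XY- female 30 lay inside the XX range in 8 of the 11, Gcsh included, beyond its far side in the other 3, and inside the range of the other XY livers in none. For Gcsh, this liver thus had the value of an XX liver and not of an XY one.

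The 5 named genes whose log2 ratios followed Gcsh most closely over the 20 arrays, among 10842 compared by Pearson's r, were Gm20747, Ssty1, Impg1, Eif2s3y and Jph4. Gm20747, Ssty1 and Eif2s3y lie on the Y chromosome, Impg1 on chromosome 9 and Jph4 on chromosome 14. Ssty1 belongs to a multicopy family known for transcription in the testis, Eif2s3y encodes a translation initiation subunit, Impg1 a proteoglycan of the retina and Jph4 a junctophilin known from brain. Their r with Gcsh was 0.94, 0.94, 0.91, 0.85 and 0.81 in that order, and 0.96, 0.95, 0.91, 0.85 and 0.81 without XY- female 30. These r were picked as the highest and carry no p-value. With each group's mean subtracted, r in the same order was 0.845, 0.835, 0.796, 0.515 and 0.705. Without XY- female 30 as well, it was 0.731, 0.722, 0.675, -0.0625 and 0.625.

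Within one kind of sex chromosome the 5 genes parted. Over the 9 other XY livers, r with Gcsh was 0.87 for Gm20747, 0.84 for Ssty1, 0.79 for Impg1 and 0.85 for Jph4, but -0.51 for Eif2s3y. Over the 10 XX livers it was 0.66, 0.38, 0.45 and 0.15 for the first 4 named and 0.20 for Eif2s3y. Over these XY livers Gcsh varied along with the Gm20747, Ssty1, Impg1 and Jph4 probes and not with Eif2s3y, the gene with the widest XX and XY separation of the 5. The r by sex chromosomes pool both gonadal types without subtracting group means. Without XY- female 30, XY- females averaged above XY-Sry males for Gcsh (0.42 against 0.18) and for those 4 genes. For Eif2s3y they averaged below (0.60 against 0.92), so group means enter these r. The 5 genes were also picked by r over arrays that include these livers. The livers share the pool, the platform and their array, and n was 9 and 10, so these values are descriptions. The annotation ties the Gcsh probe to an expressed sequence tag, the Gldc probe to a RefSeq transcript and the Dld probe to an mRNA record, and which transcripts each probe binds was not tested.

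**Figure D2:**
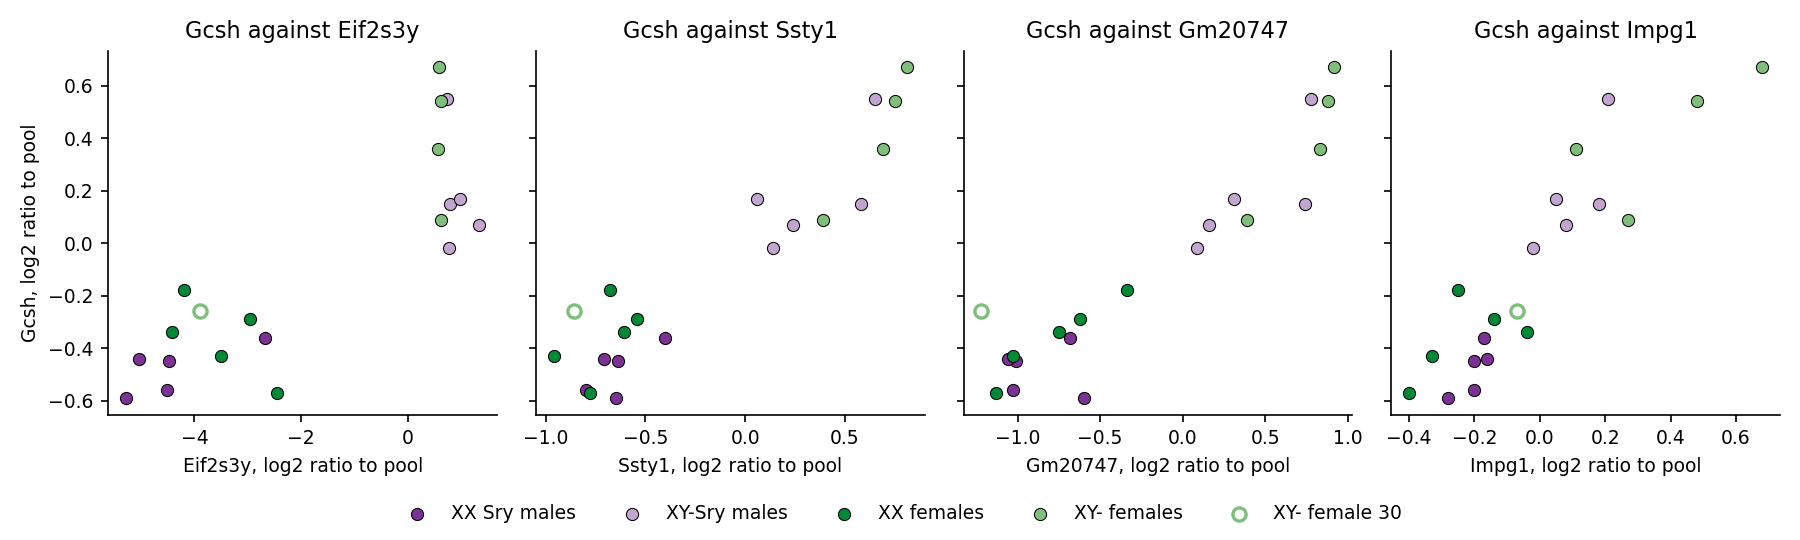
Log2 ratio of Gcsh (vertical axis) against that of Eif2s3y, Ssty1, Gm20747 and Impg1 (horizontal axes), 1 point per liver in 4 group colours, with the library labelled XY- female 30 as an open circle. XX and other XY livers form separate clouds, and inside the XY cloud Gcsh rises along Ssty1, Gm20747 and Impg1 but not along Eif2s3y.

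Gcsh lies on chromosome 8 (mouse GRCm38 annotation), Gldc on 19 and Dld on 12. The 5 nearest measured genes on each side of Gcsh were Vat1l, Clec3a, Wwox, Cdyl2 and Atmin on one, and Pkd1l2, Bco1, Cmip, Plcg2 and Hsd17b2 on the other. Their XX minus XY differences, given as a description, ran between -0.09 (Vat1l) and 0.11 (Hsd17b2), against -0.65 for Gcsh. The XX and the 9 other XY livers overlapped in all 10. Atmin, a transcription factor gene of the DNA damage response, had -0.05 ± 0.042 (SE). Pkd1l2, the protein-coding gene next to Gcsh on the other side in the annotation, had -0.02 ± 0.039 (SE). On the side of Atmin, the protein-coding gene next to Gcsh, 1700030J22Rik, was not measured.

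**Figure D3:**
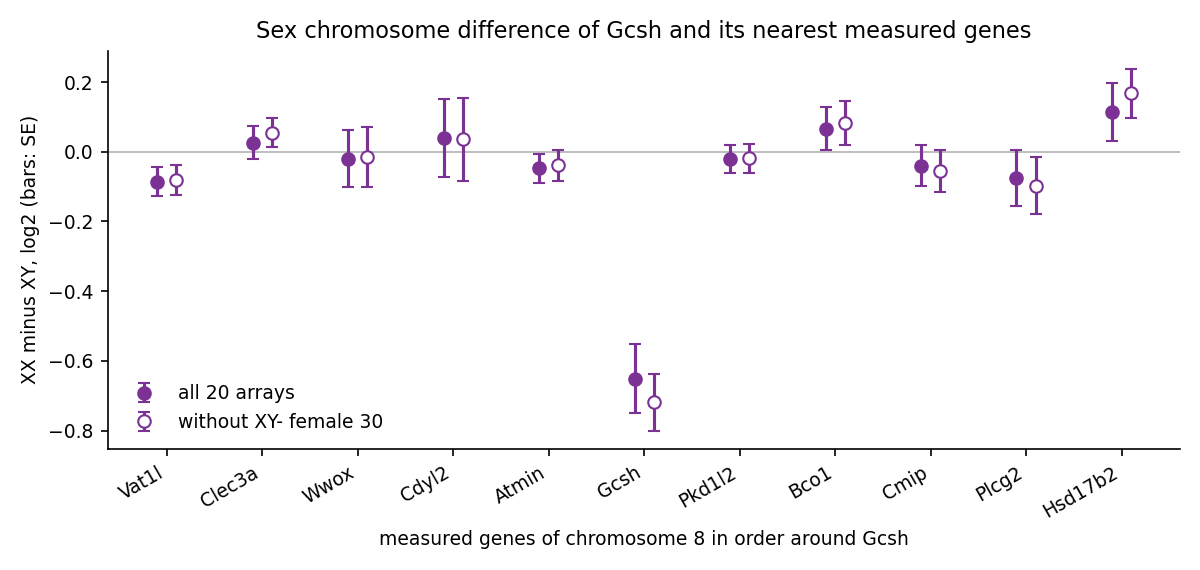
XX minus XY difference on the log2 scale with its SE (bars) for Gcsh and the 10 nearest measured genes of chromosome 8, in chromosomal order, over all 20 arrays (filled) and without XY- female 30 (open). Gcsh lies at -0.65 and -0.72, and its neighbours lie between -0.10 and 0.17.

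The comparison by gonadal type was not used to choose the members, and in the unweighted fit over all 20 arrays no member passed its test. Of the 21643 features, 809 or 3.74% were called between gonadal males and gonadal females, against 0 of the 3 members (limma, adjusted p under 0.05). Gcsh averaged -0.15 ± 0.38 in gonadal males and -0.04 ± 0.43 in gonadal females (SD, n = 10 each), a difference of -0.11 ± 0.099 (SE; 95% confidence interval -0.31 to 0.10; limma adjusted p = 0.659). The difference was -0.12 ± 0.14 among XX livers, where 0.665% of features were called, and -0.10 ± 0.14 among XY livers, where 0.157% were (SE; adjusted p = 0.792 and 0.859 in limma). Without XY- female 30 the Gcsh difference was -0.17 ± 0.081 (SE), and its unadjusted 95% confidence interval, -0.34 to -0.0037, left out 0. It still missed the threshold, with an unadjusted p of 0.0457 and an adjusted p of 0.236 (limma). Among XY livers it was then -0.23 ± 0.12 (SE; adjusted p = 0.465 in limma). Gldc averaged -0.10 ± 0.37 in gonadal males and -0.06 ± 0.32 in gonadal females (SD, n = 10 each), a difference of -0.04 ± 0.15 (SE; 95% confidence interval -0.36 to 0.28; limma adjusted p = 0.940). The Gldc interval is the widest of the members, as was its spread between animals.

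Dld averaged 0.09 ± 0.13 in gonadal males and -0.15 ± 0.22 in gonadal females (SD, n = 10 each), a difference of 0.23 ± 0.083 (SE; 95% confidence interval 0.06 to 0.41). It missed the threshold over all features, with an unadjusted p of 0.0113 and an adjusted p of 0.130 (limma). The ranges overlapped, since gonadal males ran between -0.17 and 0.24 and gonadal females between -0.42 and 0.19. The call turned on 1 library: without XY- female 30 the difference was 0.27 ± 0.078 (SE) with an adjusted p of 0.0497 (limma), in a fit that called 5.22% of features. The difference had the same size within XX livers, 0.23 ± 0.12, and within XY livers, 0.23 ± 0.12 (SE; adjusted p = 0.439 and 0.558 in limma).

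Markers of several cell types moved with gonadal type beside these values. As lower in gonadal males, limma called 6 of 12 Kupffer cell and macrophage markers (median -0.85), 7 of 13 lymphocyte markers (-0.18), 2 of 8 stellate cell and fibroblast markers (-0.16), 1 of 5 erythroid markers (-0.43) and 1 of 10 pericentral hepatocyte markers (-0.13), against 2.28% of all features. Differences were above 0 for 4 of these lymphocyte, 1 of the stellate, 1 of the erythroid and 2 of the pericentral markers, and for 0 Kupffer cell markers. Array means of the stellate list lay between -0.22 and 0.12 in gonadal males and between -0.12 and 0.36 in gonadal females. Those of the erythroid list lay between -0.32 and 0.08 in gonadal males and between 0.02 and 0.38 in gonadal females, and those of the pericentral list between -0.31 and 0.17 in gonadal males and between -0.11 and 0.24 in gonadal females. None of the 7 general and 7 periportal hepatocyte, 8 endothelial, 3 cholangiocyte or 2 pancreas and adipose markers was called (limma; 1 general and 2 periportal hepatocyte markers had an unadjusted p under 0.05). The part of these cell types in the differences of Dld, Shmt1, Gamt, Ahcy and Pdha1 was not tested.

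The sex chromosome difference of the members was compared between gonadal types by the interaction, XX minus XY in males less XX minus XY in females. It was -0.02 ± 0.20 for Gcsh, 0.14 ± 0.30 for Gldc and -0.00 ± 0.17 for Dld (SE, log2). Their 95% confidence intervals ran from -0.44 to 0.39, from -0.50 to 0.78 and from -0.35 to 0.35. No feature of 21643 (0%) passed the threshold in limma, 563 had an unadjusted p under 0.05, and the 3 members had adjusted p-values of at least 0.999. These intervals are unadjusted and are not limits of detection. With 5 animals a group, larger differences could also have missed the threshold.

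Within groups, after each group's mean was subtracted, the members were correlated over the 20 livers in 3 pairs. Gcsh and Dld ran opposite, with Pearson's r of -0.577 (permutation p = 0.0133, adjusted over the 3 pairs 0.0399) and Spearman's rho of -0.511 (permutation p = 0.0372, adjusted 0.112). That relation rested in part on XY- female 30, which is low for Gcsh and high for Dld within its group. Without it and XY- female 3, the 2 livers farthest out for Gcsh, r was -0.447, and without XY- female 30 alone it was -0.402 (permutation p = 0.101). Gcsh and Gldc had an r of 0.104 (permutation p = 0.674, adjusted 0.674) and a rho of 0.0481 (permutation p = 0.849, adjusted 0.849), and r was -0.13 without XY- female 30 and XY- female 3. Gldc and Dld had an r of -0.11 (permutation p = 0.669, adjusted 0.674) and a rho of -0.113 (permutation p = 0.671, adjusted 0.849), and r was -0.164 without XX Sry male 9 and XY-Sry male 5. Only the pair of Gcsh and Dld thus reached an adjusted p under 0.05, by r but not by rho, and not without XY- female 30. That liver had the XY- female mean subtracted, though its Gcsh value lay in the XX range. For the other pairs no direction can be read.

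Genes that work around the system were read from 4 lists of glycine and serine metabolism, folate one-carbon metabolism, lipoylation and the lipoyl-dependent dehydrogenases. Between gonadal types, 3 of the 49 measured genes were higher in gonadal males, against 1.46% of all features, and 2 were lower, against 2.28%. The 5 together made 10.2% of the list genes, and the median difference was 0.03, against 0.01 over all features. In the XX minus XY comparison 0 of the 49 passed the threshold (0.0277% of all features did), with 3 at an unadjusted p under 0.05 in limma and a median of 0.03, against -0.01 over all features. The interaction gave 0 of the 49 as well, with 1 gene, Mtr, at an unadjusted p under 0.05 in limma and a difference of 0.25 ± 0.094 (SE).

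Of 26 listed glycine and serine genes 15 were measured. Shmt1 passed the threshold as higher and Gamt as lower, and the median over the 15 was -0.03. Shmt1, the cytosolic enzyme that interconverts serine and glycine, averaged 0.11 ± 0.11 in gonadal males and -0.11 ± 0.12 in gonadal females (SD, n = 10 each; difference 0.22 ± 0.053, SE; limma adjusted p = 0.0285). Gamt, which makes creatine from a glycine-derived precursor, averaged -0.31 ± 0.35 in gonadal males and 0.28 ± 0.39 in gonadal females (SD, n = 10 each; difference -0.59 ± 0.16, SE; limma adjusted p = 0.0485). Gamt missed the threshold without XY- female 30 (limma adjusted p = 0.0598). When each liver was left out in turn, it passed only without XX Sry male 9, XY-Sry male 5, XX female 29, XX female 35 or XY- female 24, and missed in the other 15 fits. Shmt1 lost its call without XX Sry male 31, XY-Sry male 19, XY-Sry male 27, XY-Sry male 5 or XX female 2, at adjusted p-values of 0.0613, 0.0572, 0.0552, 0.0521 and 0.0536 (limma), and at 0.158 without the 4 wide arrays.

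Of 29 folate one-carbon genes, 18 were measured. Ahcy passed as higher and Folr2 as lower, and the median over the 18 was 0.12. Ahcy, which clears S-adenosylhomocysteine, averaged 0.11 ± 0.16 in gonadal males and -0.19 ± 0.12 in gonadal females (SD, n = 10 each; difference 0.30 ± 0.060, SE; limma adjusted p = 0.0089). Folr2, a folate receptor found on macrophages, averaged -0.72 ± 0.43 in gonadal males and 0.41 ± 0.58 in gonadal females (SD, n = 10 each; difference -1.13 ± 0.22, SE; limma adjusted p = 0.00751). Both calls held in all 20 fits without one of the livers, while 1 single probe of Ahcy had an adjusted p of 0.262 (limma). The 12 measured of 13 listed Kupffer cell and macrophage markers all had differences below 0 as well, 6 of them past the threshold, with a median of -0.85. Their mean per array lay between -0.94 and 0.37 in gonadal males and between -0.27 and 1.52 in gonadal females, and their part in the Folr2 result was not tested. The XX minus XY differences of all 12 were below 0 too, as was that of Gcsh, between -0.73 and -0.03 with a median of -0.18, and 0 of 12 were called, against 0.0277% of all features (limma; 0 at an unadjusted p under 0.05). Their array means lay between -0.94 and 0.57 in XX livers and between -0.73 and 1.52 in the 9 other XY livers, and their part in the Gcsh difference was not tested.

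Of 23 lipoylation genes 5 were measured and none passed the threshold for gonadal type (limma; 0 at an unadjusted p under 0.05), with a median of -0.06. Fdx1, a ferredoxin that serves lipoyl synthesis in human cells, had the smallest p, at -0.11 ± 0.084 (SE; limma adjusted p = 0.585). Of 19 genes of the lipoyl-dependent dehydrogenase complexes and their regulators, 11 were measured and 1 passed, with a median of 0.03. Pdha1, the X-linked subunit of pyruvate dehydrogenase that shares the L protein with glycine cleavage, averaged 0.11 ± 0.14 in gonadal males and -0.16 ± 0.19 in gonadal females (SD, n = 10 each; difference 0.28 ± 0.076, SE; limma adjusted p = 0.0493). It missed the threshold in 14 of the 20 fits without one of the livers, and passed without XX Sry male 32, XY-Sry male 14, XX female 29, XX female 6, XY- female 30 or XY- female 3.

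**Figure D4:**
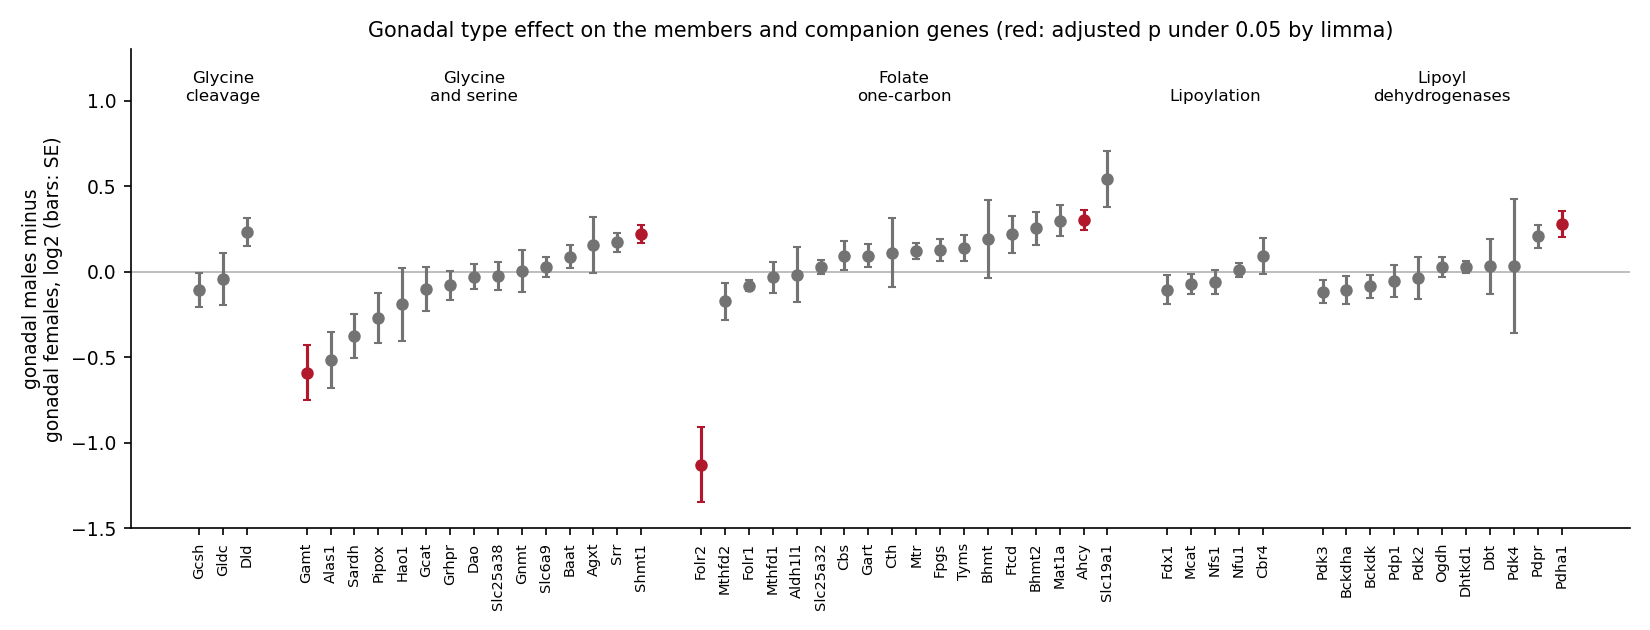
Gonadal males minus gonadal females on the log2 scale with its SE (bars) for the 3 measured glycine cleavage genes and the 49 measured genes of 4 related lists, sorted within a list, with genes past the limma threshold in red. The 5 called genes are Gamt, Shmt1, Folr2, Ahcy and Pdha1, and no glycine cleavage gene is among them.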

How the data were processed

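The authors deposited 1 table of log10 ratios of liver (Cy5) over a common pool (Cy3) for 23574 probes on 20 arrays; the log base and the direction were not stated and were taken from the dyes in the labels and from the values. With base 10, Eif2s3y stood at 1.74 ± 0.331 times the pool in the 9 other XY livers (SD). RNA was purified on RNeasy columns with DNase and labelled with an aminoallyl kit procedure, per the labels' protocols. Background correction and dye normalization are not given in the sources used here. Of the values, 29 sat at the size limit of 2 on the log10 scale and 2 were missing. The labels describe the pool as 17 mice, the design text as equal RNA of all samples.

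Values were converted to log2, and probes of a gene were averaged, which gave 21643 features. Of the probes, 12662 were named by gene ID, 4 by accession and 999 by the array annotation's symbol only, 48 had several genes and 9861 were not listed. limma 3.58.1 in R 4.3.3 fitted 4 group means to all 20 arrays, with Benjamini-Hochberg adjustment over all features and a threshold of 0.05, and was tested on simulated data. Each array was 1 animal, and the number of arrays limits the precision. Correlations were tested with 100000 permutations within groups, two-sided. The genes and lists were chosen with earlier results of these data known. Named genes were the members, Eif2s3y and Kdm5d as label checks, the 5 most like Gcsh, 5 neighbours on each side, and list genes past the threshold or else with the smallest p. Alternatives left out arrays, changed the normalization or the weights, or used single probes.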

Additional observations from a re-analysis of the deposited data

Results flagged for a closer look

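Among the 12 sets of 5 livers (3 genes in 4 groups), 1 held a value far from the others: Dld was 0.17 (log2 ratio to pool) in the library labelled XY- female 30, while the other 4 XY- females lay between -0.33 and -0.19. Its gap to the nearest, relative to the group's range, exceeded the critical value of 0.71, which chance exceeds in about 1 of 20 groups. Without this liver the XY- female mean of Dld was -0.24 ± 0.059 (SD, n = 4), against -0.16 ± 0.19 with it (n = 5).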

How the results depend on the processing

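No paired analysis was possible because every animal had its own number, so that no 2 groups shared one. Values are log2 differences unless named otherwise. Without XY- female 30 and with array weights, the gonadal type difference of Dld was 0.274 and passed the threshold (adjusted p = 0.0497 and 0.0195 in limma), and over the other settings its adjusted p ran up to 0.236. The Gcsh interaction turned to 0.113 without XY- female 30 and 0.027 with array weights. That of Dld turned to 0.0918 without the 4 wide arrays, 0.0238 with quantile normalization, 0.0124 with arrays scaled to a common SD and 0.0234 with array weights. Without the wide arrays, the gonadal type difference of Gldc turned to 0.117, and to 0.000302 within XY. None of these turned values passed the threshold. The cause was not tested.

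Features called XX against XY numbered 6, but 13 without XY- female 30, 0 without the wide arrays and 12 with array weights. Those called by gonadal type numbered 809, but 1733 with array weights. Glycine and serine genes called by gonadal type numbered 2, but 0 without the wide arrays and 1 with single probes; folate genes 5 with array weights, against 2; lipoyl dehydrogenase genes 0 with single probes, against 1. The correlation of Gcsh and Gldc was -0.0172 without the wide arrays. That of Gcsh and Dld was -0.402 without XY- female 30 (permutation p = 0.101) and -0.381 without subtracting group means (permutation p = 0.0963).

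Leaving out each liver in turn gave a gonadal type difference of -0.174 to -0.0575 for Gcsh, -0.114 to 0.0166 for Gldc and 0.197 to 0.274 for Dld. Within XX these were -0.17 to -0.0726, -0.117 to 0.137 and 0.16 to 0.314, and within XY -0.23 to 0.00279, -0.233 to 0.00618 and 0.192 to 0.315. The interaction ran -0.121 to 0.113 for Gcsh, -0.00488 to 0.26 for Gldc and -0.0828 to 0.0802 for Dld. XX minus XY ran -0.719 to -0.603 for Gcsh, -0.173 to -0.0376 for Gldc and -0.0156 to 0.0659 for Dld, and in males and females alone -0.713 to -0.572 and -0.775 to -0.542, -0.175 to 0.0902 and -0.275 to -0.044, and -0.0353 to 0.0655 and -0.0557 to 0.107. Features called numbered 2 to 13 for XX against XY, 393 (without XY-Sry male 19) to 1129 (without XY- female 30) for gonadal type, and 0 for the interaction. Genes called by gonadal type numbered 0 to 2 in the glycine and serine list, 2 to 4 in the folate list and 0 to 1 among lipoyl dehydrogenases.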

Other observations

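Of the 10 neighbours of Gcsh on chromosome 8, 3 passed the limma threshold as lower in gonadal males, against 2.28% of all features, and none passed as higher. The other 7 had differences between -0.09 and 0.14. Wwox, an oxidoreductase gene known as a tumour suppressor, differed by -0.37 ± 0.082 (SE; limma adjusted p = 0.0185). Plcg2, a phospholipase of immune cell signalling, differed by -0.37 ± 0.081 (SE; limma adjusted p = 0.0165). Hsd17b2, which oxidizes estradiol and testosterone, differed by -0.40 ± 0.083 (SE; limma adjusted p = 0.0119). Gcsh itself did not pass the threshold in that comparison. Of 13 measured lymphocyte markers, 7 passed the limma threshold as lower in gonadal males, against 2.28% of all features, and 4 had differences above 0. Their array means lay between -0.39 and -0.13 in gonadal males and between 0.04 and 0.70 in gonadal females, and their part in the Plcg2 result was not tested.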
